A study of Mus musculus with 5 samples.

Results

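Endothelial marker genes were followed as a gauge of vascular transcripts in granulosa cell preparations of mouse ovaries. The 36 members are genes used to mark the cells that line blood and lymph vessels, and they were taken from a probe set annotated with the member's symbol alone. All 36 were found among the 18194 genes with such a probe set. By role they comprise 9 receptors, 12 junction and surface proteins, 8 transcription factors, and 7 secreted, enzyme, transport or signalling proteins. Each gene was read from its probe set of highest mean log2 intensity over the 5 arrays.

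Follicles had been grown with equine chorionic gonadotropin (eCG) for 48 h, and ovulation was then triggered with human chorionic gonadotropin (hCG), a substitute for luteinizing hormone. The conditional knockout carried floxed alleles of both C/EBPα and C/EBPβ with the Cyp19-cre transgene, and its granulosa cells were taken 4, 8 and 24 h after hCG. The other group was labelled wild type, with nothing said of the floxed alleles or of Cre, and was taken at 8 and 24 h. The labelled age was 23 days for arrays at 4 and 8 h, and 24 days for those at 24 h. The Cyp19 promoter, that of the aromatase gene, drives the recombinase in granulosa cells, while these genes are used as markers of vessel cells. Whether granulosa cells contributed to the members' intensities was not tested. Each group was 1 array, and whether animals were pooled for it is not given in the labels.

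The growing follicle has no vessels inside its basement membrane, and its granulosa layer is fed from capillaries in the surrounding theca. After the ovulatory signal the membrane breaks down, and endothelial cells grow in among the luteinizing granulosa cells to form one of the densest capillary beds of the body. Endothelial identity rests on transcription factors of the ETS and SOX families, and vessel growth on receptor tyrosine kinases for vascular endothelial growth factors and angiopoietins.

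Promoter windows of the members are shown because the genes they belong to bracket the pattern described here, with Emcn, Clec14a, Tie1 and Tek lower in the knockout at 8 h, Spns2 of opposite direction at the times compared, and Cd34 the brightest member at 4 and 8 h. RefSeq sequence of GRCm38.p6 was found for 19 members, in 24 windows from 250 bases before to 50 bases after an annotated start, and 17 members had no entry. Capitals mark matches to CNGGAAG, an ETS-type motif, on either strand, and the windows read 5′ to 3′ on the strand of the gene.
Emcn (chr3:137340828-137341127, plus strand): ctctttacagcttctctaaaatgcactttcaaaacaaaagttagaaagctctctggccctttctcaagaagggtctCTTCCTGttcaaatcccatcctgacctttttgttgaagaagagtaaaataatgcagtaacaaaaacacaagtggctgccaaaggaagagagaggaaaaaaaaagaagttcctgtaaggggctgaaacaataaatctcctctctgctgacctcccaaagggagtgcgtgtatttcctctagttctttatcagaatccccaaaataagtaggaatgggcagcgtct
Clec14a (chr12:58269209-58269508, minus strand): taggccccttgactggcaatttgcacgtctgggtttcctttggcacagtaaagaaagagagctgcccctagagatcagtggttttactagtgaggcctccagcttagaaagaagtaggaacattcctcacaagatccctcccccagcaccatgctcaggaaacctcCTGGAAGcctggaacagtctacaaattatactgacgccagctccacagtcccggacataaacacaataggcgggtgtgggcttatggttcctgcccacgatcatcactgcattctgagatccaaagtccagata
Tie1 (chr4:118489800-118490099, minus strand): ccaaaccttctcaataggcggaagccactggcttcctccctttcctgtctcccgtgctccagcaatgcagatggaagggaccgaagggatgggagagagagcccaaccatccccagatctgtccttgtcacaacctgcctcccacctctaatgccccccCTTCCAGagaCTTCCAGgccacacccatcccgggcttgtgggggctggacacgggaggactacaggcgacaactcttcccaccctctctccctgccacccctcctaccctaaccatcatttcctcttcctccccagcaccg
Tek (chr4:94739039-94739338, plus strand): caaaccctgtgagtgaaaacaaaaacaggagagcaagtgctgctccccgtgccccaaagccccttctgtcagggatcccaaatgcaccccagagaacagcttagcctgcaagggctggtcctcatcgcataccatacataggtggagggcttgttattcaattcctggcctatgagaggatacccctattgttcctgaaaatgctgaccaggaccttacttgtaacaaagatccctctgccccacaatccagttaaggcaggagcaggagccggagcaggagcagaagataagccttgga
Spns2 (chr11:72474978-72475277, minus strand): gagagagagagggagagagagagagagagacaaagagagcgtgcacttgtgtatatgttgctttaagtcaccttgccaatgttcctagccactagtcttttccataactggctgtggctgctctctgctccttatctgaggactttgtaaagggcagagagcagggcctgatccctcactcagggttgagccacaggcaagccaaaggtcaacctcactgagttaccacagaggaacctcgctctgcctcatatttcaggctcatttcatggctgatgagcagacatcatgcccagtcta
Cd34 (chr1:194938571-194938870, plus strand): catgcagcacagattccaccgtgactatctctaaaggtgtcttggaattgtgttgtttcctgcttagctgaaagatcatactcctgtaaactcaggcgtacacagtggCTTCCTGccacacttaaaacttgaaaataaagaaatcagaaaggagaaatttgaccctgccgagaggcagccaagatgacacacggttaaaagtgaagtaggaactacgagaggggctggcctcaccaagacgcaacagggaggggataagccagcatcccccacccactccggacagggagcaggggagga
The ETS-type motif CNGGAAG was present in 14 of the 24 windows (58.3%), against 31.9% of all 32851 windows of the same length. AACAAT, a SOX-type motif, was in 4 windows (16.7% against 10.7% of all), and CAGNTG, an E-box of the kind that TAL1 and LYL1 bind, in 12 (50% against 51.4%). TTGCNNAA, a C/EBP-type motif, was in 3 windows (12.5% against 10.8%), of Erg and Tal1. Matches were counted on both strands, windows of the same gene were counted separately, and no matches of different motifs overlapped. The Tie1 window held 2 ETS-type matches, the Emcn, Clec14a and Cd34 windows 1 each, and the Tek and Spns2 windows none. A match is a description of letters in these windows and shows no binding.

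Whole-array values set the frame for the members. The median intensity over all 45101 probe sets was 31 or 32 on the arrays at 8 and 24 h and 54 on the knockout array at 4 h, which was not on their scale. Cebpa and Cebpb, the targeted genes, read lower in the knockout, though whether their probe sets lie in the deleted parts is not given in the labels. Cebpa (1418982_at) was at 19 in the knockout and 685 in wild type at 8 h, and at 24 h 38 in the knockout and 352 in wild type. Cebpb (1418901_at) was at 1127 in the knockout and 7436 in wild type at 8 h, and at 24 h 85 in the knockout and 3976 in wild type. All 14 granulosa markers used to check the label lay above an intensity of 22, the 40th percentile of all values, on every array, among them the inhibin gene Inha, at 15340 or more. Of all 18194 genes, from 69.1% (knockout at 8 h) to 82.9% (knockout at 4 h) reached 22, so this is a weak check. Cyp19a1 and Lhcgr, also on that list, had no probe set annotated with their symbol alone.

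At 8 h after hCG, 25 of the 36 endothelial markers were lower in knockout cells by a size rule, and none was higher. With 1 array per group there is no replicate and no test, so a gene was called only where its intensities differed by at least 2-fold and the higher value reached that percentile, 22, taken as a floor. Of all 12924 genes at or above that floor, 4.05% were called lower and 1.58% higher. Of the 33 members at or above the floor, 31 lay below wild type, against 50.7% of all genes, and their median log2 difference was -1.53, so that the knockout held 34.6% of the wild-type intensity at the median. The median over all genes was -0.01. The members' differences ran from -3.36 for Emcn to 0.82 for Cd34, and that median was -1.26 once dimmer values were set to the floor. Fewer endothelial cells in the preparation and less RNA of these genes per cell cannot be told apart in such bulk samples. If the dimmer value did not reach the floor, a fold is given against the floor as "at least". Folds given without a direction are of the knockout below wild type.

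**Figure D1:**
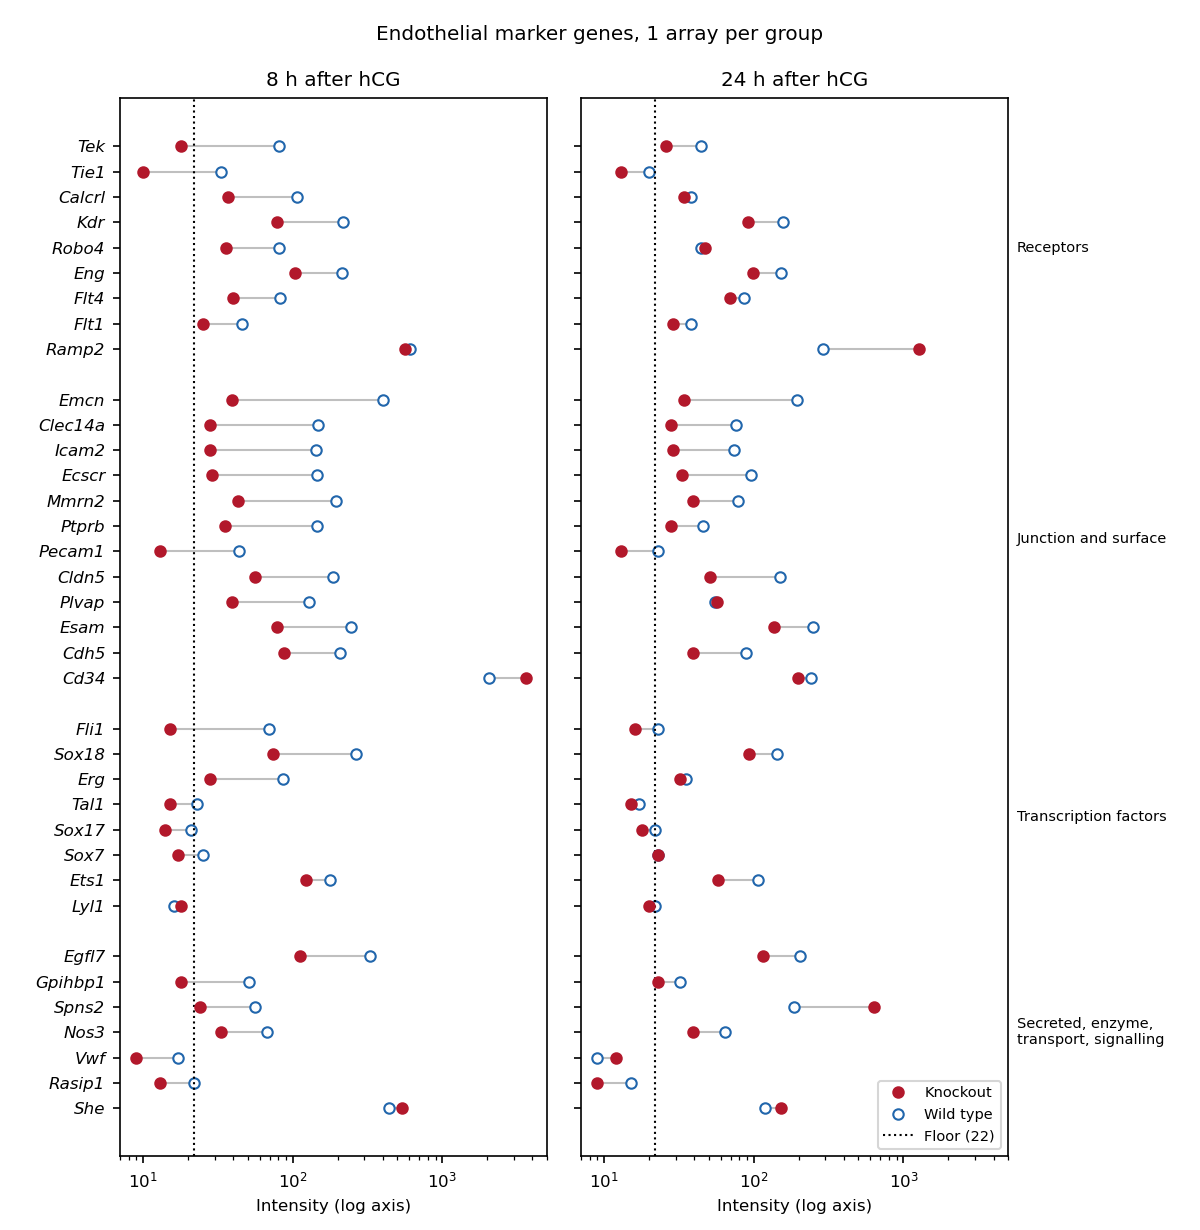
Intensity (log axis) of each of the 36 endothelial marker genes at 8 h and 24 h after hCG, with filled points for the knockout array, open points for the wild-type array and a dotted line at the floor of 22. At 8 h most filled points lie left of their open partners, Emcn farthest (39 in the knockout, 400 in wild type), while at 24 h Ramp2 and Spns2 lie to the right.

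At 8 h 7 of the 9 receptors were lower in the knockout, and at 24 h none, when Ramp2 (1418187_at) alone was called, as higher. Kdr (1449379_at), the main signalling receptor for vascular endothelial growth factor A, had an intensity of 79 in the knockout and 216 in wild type at 8 h, 2.73-fold lower, and of 91 in the knockout and 156 in wild type at 24 h, short of the rule. Tek (1418788_at), the angiopoietin receptor also known as Tie2, was at 18 in the knockout and 81 in wild type at 8 h, at least 3.68-fold lower. At 24 h Tek read 26 in the knockout and 44 in wild type. Its relative Tie1 (1416238_at), which modulates Tek signalling, had 10 in the knockout and 33 in wild type at 8 h, at least 1.5-fold lower, a bound short of the 2-fold rule that its measured values passed, and lay under the floor on both arrays at 24 h, with 13 in the knockout and 20 in wild type. For both angiopoietin pathway receptors the knockout value at 8 h was thus under the floor, and only a bound on the fold can be given.

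Eng (1417271_a_at), a co-receptor for TGF-β family ligands, stood at 103 in the knockout against 214 in wild type at 8 h (2.08-fold) and at 98 in the knockout against 152 in wild type at 24 h. A second Eng probe set (1432176_a_at) read 57 in the knockout and 192 in wild type at 8 h and, past the rule, 43 in the knockout and 99 in wild type at 24 h. Flt4 (1444052_at), the receptor for the lymphangiogenic factors VEGFC and VEGFD, stood at 40 in the knockout against 82 in wild type at 8 h (2.05-fold) and at 69 in the knockout against 86 in wild type at 24 h. The other Flt4 probe set (1421442_at) went the opposite way at 8 h, near the floor, with 25 in the knockout and 22 in wild type. Robo4 (1426206_at), an endothelial roundabout receptor, gave 36 in the knockout and 81 in wild type at 8 h (2.25-fold). At 24 h its values met, with 47 in the knockout and 44 in wild type. Flt1 (1451756_at), which binds VEGFA with high affinity, missed the rule at both times, with 25 in the knockout and 46 in wild type at 8 h, and at 24 h 29 in the knockout and 38 in wild type. A second Flt1 probe set (1419300_at) read 15 in the knockout and 67 in wild type at 8 h, and at 24 h 15 in the knockout and 44 in wild type, so the choice of probe set decided that Flt1 was not called.

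Calcrl (1425814_a_at) and Ramp2 encode the receptor and the accessory protein that together bind adrenomedullin, and they did not move alike. Calcrl had 37 in the knockout and 107 in wild type at 8 h, 2.89-fold lower, and nearly equal values of 34 in the knockout and 38 in wild type at 24 h. Its other probe sets lay under the floor on all 4 of these arrays. Ramp2 had 559 in the knockout and 612 in wild type at 8 h, a log2 difference of -0.13. At 24 h Ramp2 had 1280 in the knockout and 288 in wild type, 4.44-fold higher. The Ramp2 intensity of the knockout was thus higher at 24 h than at 8 h while that of wild type was lower, and no other receptor did this past the rule.

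Junction and surface proteins held the lowest median of the 4 role groups at 8 h, -1.91 over 12 members, with 11 lower by the rule. Emcn (1425582_a_at), an endothelial sialomucin of capillaries and veins, had 39 in the knockout and 400 in wild type at 8 h, 10.3-fold lower, and 34 in the knockout and 195 in wild type at 24 h, 5.74-fold lower. Clec14a (1419467_at), a C-type lectin of growing vessels, had 28 in the knockout at both times, against 148 in wild type at 8 h (5.29-fold) and 76 in wild type at 24 h (2.71-fold). Its ligand Mmrn2 (1456768_a_at), a matrix protein of the vessel wall, had 43 in the knockout and 194 in wild type at 8 h (4.51-fold) and 39 in the knockout and 78 in wild type at 24 h, exactly at the 2-fold threshold. All 3 genes were called at both times, and their knockout intensities at 8 and 24 h lay closer together than the wild-type ones.

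Icam2 (1448862_at), an adhesion molecule that binds leukocyte integrins, had 28 in the knockout and 144 in wild type at 8 h (5.14-fold) and 29 in the knockout and 74 in wild type at 24 h (2.55-fold). Ecscr (1437451_at), a surface protein of endothelial migration, had 29 in the knockout and 145 in wild type at 8 h (5.00-fold) and 33 in the knockout and 95 in wild type at 24 h (2.88-fold). Cldn5 (1417839_at), the claudin of endothelial tight junctions, had 56 in the knockout and 185 in wild type at 8 h (3.30-fold) and 51 in the knockout and 149 in wild type at 24 h (2.92-fold). The genotype difference of Cldn5 moved by only 0.18 on the log2 scale between the times. Cdh5 (1433956_at), the cadherin of endothelial adherens junctions, had 87 in the knockout and 208 in wild type at 8 h (2.39-fold) and 39 in the knockout and 88 in wild type at 24 h (2.26-fold). Its values fell with time in both genotypes, and the other probe set of Cdh5 stayed under the floor on all 4 of these arrays. These 7 genes, all of the junction and surface group, were the members called lower at both times, 7 of the 30 members above the floor at both, against 1.08% of 12660 genes.

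Ptprb (1436367_at), a phosphatase that acts on Tek and Cdh5, had 35 in the knockout and 146 in wild type at 8 h (4.17-fold) and 28 in the knockout and 46 in wild type at 24 h. Plvap (1418090_at), which forms the diaphragms of endothelial openings, had 39 in the knockout and 128 in wild type at 8 h (3.28-fold), and 57 in the knockout and 55 in wild type at 24 h. Esam (1460356_at), an adhesion molecule of endothelial tight junctions, had 79 in the knockout and 244 in wild type at 8 h (3.09-fold) and 136 in the knockout and 248 in wild type at 24 h. Pecam1 (1421287_a_at), the adhesion molecule CD31, was dim throughout, with 13 in the knockout and 44 in wild type at 8 h, at least 2-fold lower, and 13 in the knockout and 23 in wild type at 24 h. These 4 were called at 8 h and not at 24 h. Cd34 (1416072_at), a sialomucin that is also found on stromal and progenitor cells, was the exception of its group, with 3637 in the knockout and 2056 in wild type at 8 h, and at 24 h 197 in the knockout and 242 in wild type, short of the rule at both times.

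Among the 8 transcription factors, 3 were lower at 8 h in the knockout and none was called at 24 h. Sox18 (1449135_at), which acts in arterial and lymphatic specification, had 74 in the knockout and 265 in wild type at 8 h (3.58-fold) and 93 in the knockout and 143 in wild type at 24 h. Fli1 (1433512_at), an ETS factor, had 15 in the knockout and 69 in wild type at 8 h, at least 3.14-fold lower, and 16 in the knockout and 23 in wild type at 24 h. Erg (1440244_at), its close relative, had 28 in the knockout and 86 in wild type at 8 h (3.07-fold) and 32 in the knockout and 35 in wild type at 24 h. All 3 were highest in wild type at 8 h, and the other probe set of Fli1 did not reach the floor on these arrays while that of Erg read between 20 and 23. Ets1 (1426725_s_at), an ETS factor of many cell types, differed by -0.54 at 8 h, with 122 in the knockout and 178 in wild type, and by -0.88 at 24 h, with 58 in the knockout and 107 in wild type. Sox7 (1416564_at), Sox17 (1421657_a_at), Tal1 (1449389_at) and Lyl1 (1419120_at) stayed between 14 and 25 on these 4 arrays and were not called. Their log2 differences at 8 h and 24 h were -0.56 and 0.00 for Sox7, -0.58 and -0.29 for Sox17, -0.62 and -0.18 for Tal1, and 0.17 and -0.14 for Lyl1, at intensities where the floor leaves little room for a difference. A second Sox17 probe set (1429177_x_at) read 7 in the knockout and 46 in wild type at 8 h.

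The last group of 7 had 4 members lower at 8 h and held Spns2 (1451601_a_at), of opposite direction at the times compared. Egfl7 (1451427_a_at), a secreted protein of the vessel wall, had 111 in the knockout and 326 in wild type at 8 h (2.94-fold) and 116 in the knockout and 205 in wild type at 24 h. Gpihbp1 (1453022_at), which carries lipoprotein lipase across capillary endothelium, had 18 in the knockout and 51 in wild type at 8 h, at least 2.32-fold lower, and 23 in the knockout and 32 in wild type at 24 h. Nos3 (1422622_at), endothelial nitric oxide synthase, had 33 in the knockout and 67 in wild type at 8 h (2.03-fold) and 39 in the knockout and 64 in wild type at 24 h. Both Egfl7 and Nos3 had nearly the same intensity in the knockout at 8 and 24 h. Spns2, a transporter that exports sphingosine 1-phosphate, had 24 in the knockout and 56 in wild type at 8 h (2.33-fold lower), and 636 in the knockout and 186 in wild type at 24 h (3.42-fold higher). She (1457094_at), an SH2 domain adaptor, had 541 in the knockout and 442 in wild type at 8 h, and at 24 h 151 in the knockout and 119 in wild type, differing by 0.29 and 0.34. Vwf (1435386_at), von Willebrand factor, did not reach the floor on any of the 5 arrays, and Rasip1 (1428016_a_at), a regulator of vessel lumen formation, reached 22 in wild type at 8 h and lay under the floor on the other 3 arrays at these times. Their log2 differences were -0.92 and 0.42 for Vwf and -0.76 and -0.74 for Rasip1, at 8 h and 24 h.

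At 24 h, 7 of the 36 members were lower in the knockout and 2 higher, against 3.92% and 3.13% of 13052 genes. The 32 members at or above the floor had a median log2 difference of -0.63 (the knockout at 64.8% of wild type), against 0.05 over all genes, and 26 of them lay below wild type, against 43.7% of all genes. By role the medians were -1.09 for junction and surface proteins, -0.48 for the secreted, enzyme, transport and signalling group, -0.35 for receptors and -0.29 for transcription factors. All 7 members called lower were junction and surface proteins, and the 2 called higher were Ramp2 and Spns2. The genotype difference moved upward between 8 and 24 h by at least 2-fold in 14 members and downward in 1, Cd34, with a median of 0.80 over 35 members against 0.07 over all genes. Of all 13316 genes, 5.04% passed upward and 3.09% downward. On the log2 scale the moves of Spns2 (3.0), Ramp2 (2.28) and Plvap (1.77) were the widest among members above the floor on all 4 arrays. With dim values set to the floor, 12 members moved upward. There are no replicates, so this difference between the times was not tested.

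**Figure D2:**
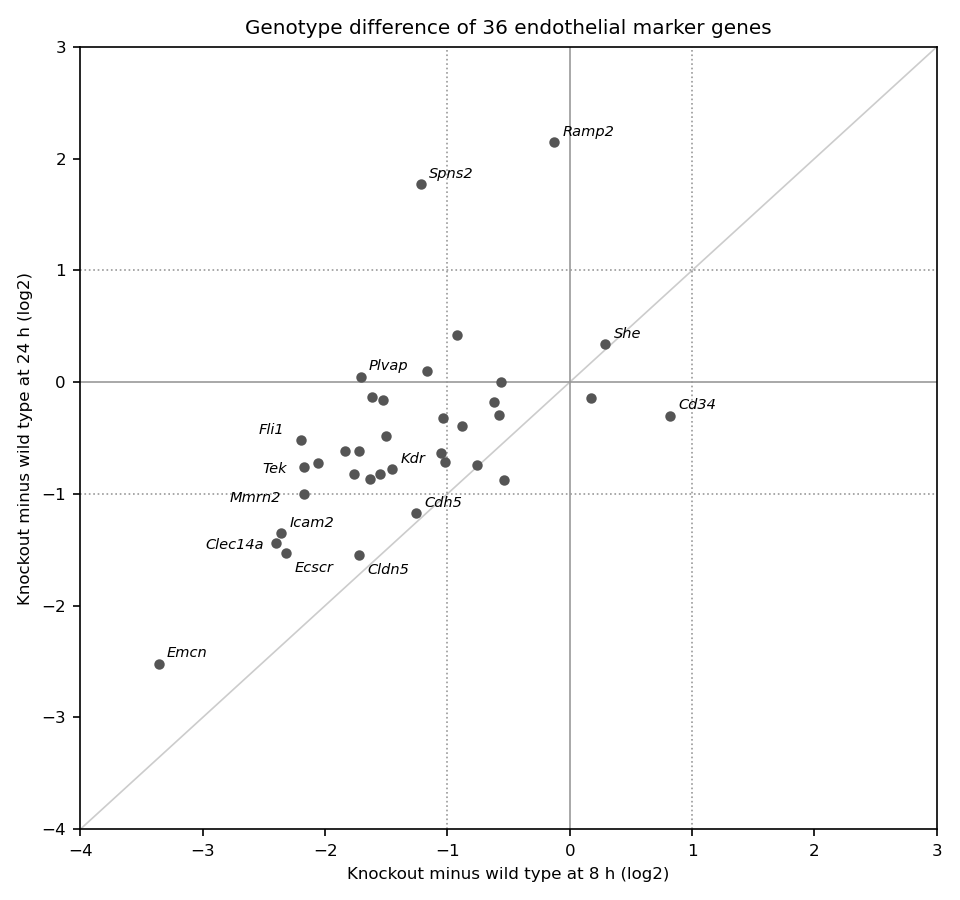
Log2 difference of knockout minus wild type at 24 h (vertical) against that at 8 h (horizontal) for the 36 endothelial marker genes, 1 point per gene, with dotted lines at the 2-fold threshold and a diagonal of equal differences. Most points lie left of 0 and above the diagonal, Emcn is farthest to the lower left (-3.36 and -2.52), and Ramp2 and Spns2 lie above 1 at 24 h.

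Across the 36 members the genotype differences at 8 h and 24 h correlated with r = 0.59, and across the 12660 genes at or above the floor at both times with r = 0.43. The 36 include members under the floor, since 30 were above it at both times, so the 2 correlations are not over like sets. The times share no array. These are correlations across genes, which are not independent replicates, and each point of a time shares its 2 arrays with the others.

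In wild type, 11 members were lower at 24 h than at 8 h and 1 was higher, Spns2, against 6.45% and 5.55% of 13054 genes. The median over 35 members was -0.73, against 0.00 over all genes, and 30 of the 35 lay below 0, against 49.1% of all genes. Cd34 was 8.50-fold, She 3.71-fold, Ptprb 3.17-fold, Fli1 3.0-fold and Calcrl 2.82-fold lower at 24 h in wild type, and the other 6 from 2.05-fold (Emcn) to 2.49-fold (Mmrn2) lower. In the knockout, 4 members were lower at 24 h than at 8 h and 2 higher, of 28 at or above the floor, against 5.26% and 6.85% of 12999 genes, with a median of 0.19 (0.07 over all genes). Those lower were Cd34 (18.5-fold), She (3.58-fold), Cdh5 (2.23-fold) and Ets1 (2.10-fold), and those higher Spns2 (26.5-fold) and Ramp2 (2.29-fold). Ramp2 was 2.12-fold lower at 24 h in wild type. Of the 28 members above the floor in both genotypes, Cdh5, Cd34 and She were lower at 24 h in both, against 3.24% of 12737 genes. Ets1 was called in the knockout alone, but this rested on the choice of probe set. A second Ets1 probe set (1452163_at) passed 2-fold in both genotypes, from 115 to 45 in the knockout and from 183 to 73 in wild type. These time changes use the same arrays as the genotype differences, and they are another view of the same values.

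**Figure D3:**
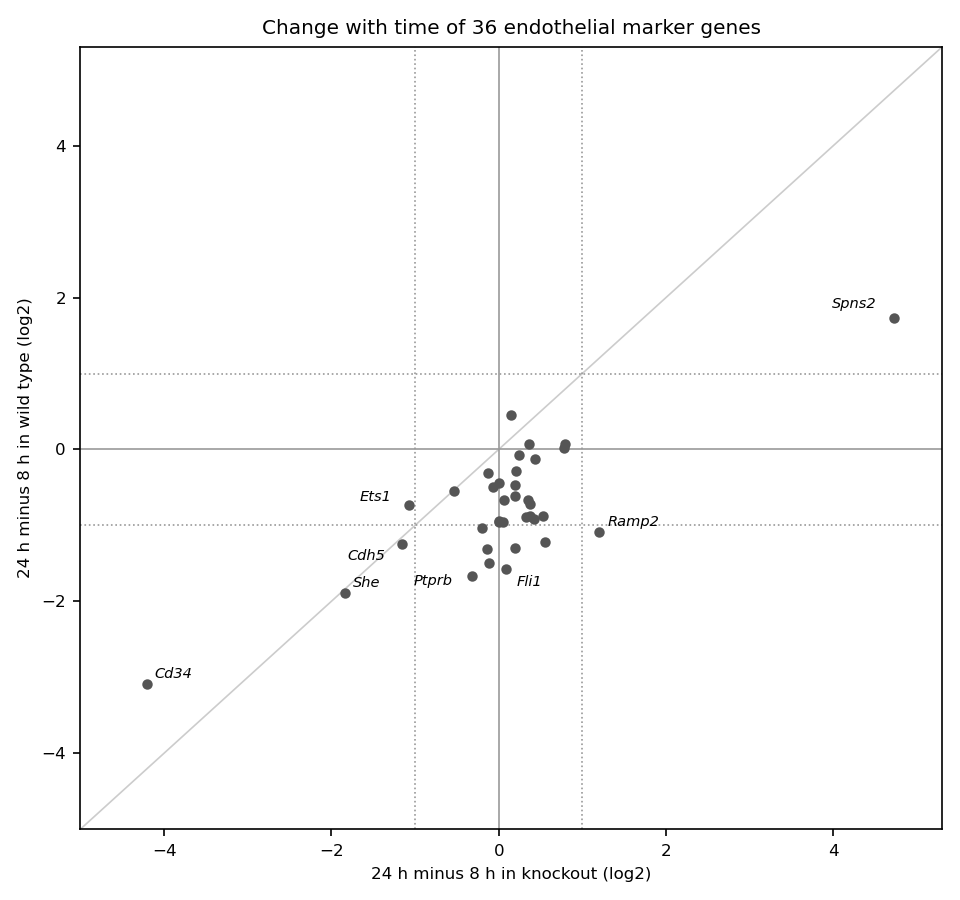
Log2 change from 8 h to 24 h in the knockout (horizontal) and in wild type (vertical) for the 36 endothelial marker genes, 1 point per gene, with dotted lines at the 2-fold threshold and a diagonal of equal changes. The bulk of the points lies near 0 in the knockout and below 0 in wild type, Cd34 and She fall in both, and Spns2 (4.73 in the knockout, 1.73 in wild type) stands apart.

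Wild type at 8 h was the highest of the 4 arrays for 27 of the 35 members that reached the floor on any of them, against 19.9% of 13316 genes. The knockout at 8 h was highest for Cd34 and She (21.1% of all genes) and the knockout at 24 h for Ramp2 and Spns2 (30.9%). Wild type at 24 h was highest for Flt4, Esam, Sox17 and Lyl1 (25.7%), by small gaps. Against wild type at 8 h, Flt4 read 86 to 82, Esam 248 to 244 and Sox17 22 to 21. Lyl1 read 22, against 20 in the knockout at 24 h. At 8 h, 25 members (69.4%) reached the floor in the knockout and 33 (91.7%) in wild type. At 24 h, 28 (77.8%) did in the knockout and 32 (88.9%) in wild type. Over all 18194 genes the shares were 69.1% in the knockout and 69.4% in wild type at 8 h. They were 70.1% in the knockout and 70.2% in wild type at 24 h. The median intensity over all 36 was 34.0 in the knockout and 118 in wild type at 8 h, while it was 34.0 in the knockout and 69.0 in wild type at 24 h. The summed intensity was 6072 in the knockout and 7178 in wild type at 8 h, and at 24 h 3632 in the knockout and 3257 in wild type. Of the sums at 8 h, Cd34 alone made up 3637 in the knockout and 2056 in wild type, and of those at 24 h Ramp2 made up 1280 in the knockout and 288 in wild type, so the sums and the medians do not tell the same story.

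**Figure D4:**
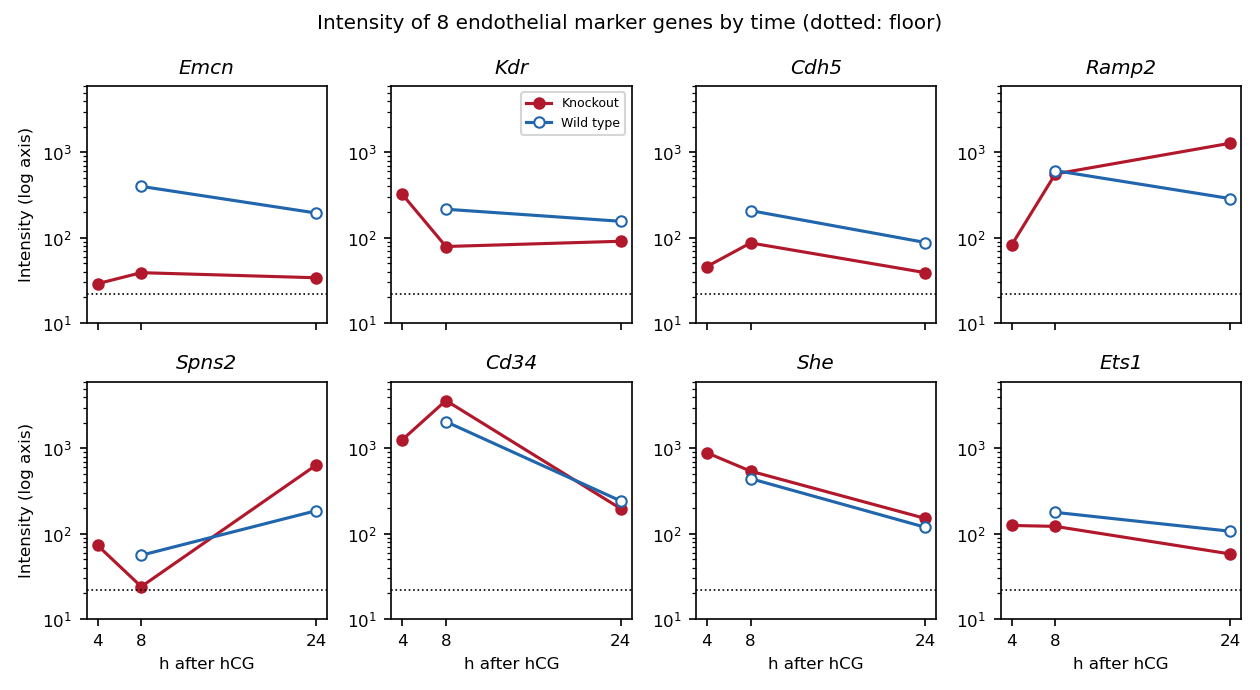
Intensity (log axis) by hours after hCG for 8 endothelial marker genes, with filled points for the knockout at 4, 8 and 24 h, open points for wild type at 8 and 24 h and a dotted line at the floor of 22; the array at 4 h is on another scale. Emcn, Kdr and Cdh5 run below wild type at both times, Ramp2 and Spns2 end above it, and Cd34 and She drop from 8 h to 24 h in both genotypes.

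The knockout array at 4 h was set against no wild-type array here and read higher at the median, with a median log2 difference of -0.92 over all probe sets for 8 h minus 4 h. On the deposited scale, 7 members were lower at 8 h than at 4 h and 2 higher, against 39.9% and 5.51% of 15198 genes, with a median of -0.71 against -0.78 over all genes. After quantile normalization of the 5 arrays, 2 members were lower and 4 higher, against 11.9% and 17.9% of 13747 genes on that scale. The median turned to 0.40 over members that reached the floor of the normalized values. It was 0.02 over the 15198 genes that reached the floor as deposited. These 2 medians rest on different floors, so the gap between them is not a like comparison. After that normalization Ramp2 had 624 at 8 h and 55.0 at 4 h, a log2 difference of 3.51, and Cd34 4030 at 8 h and 793 at 4 h, a difference of 2.34. Cdh5 (1.70) and Emcn (1.30) were also higher at 8 h, while Kdr (-1.32) and Sox18 (-1.05) were lower. As deposited, the array at 4 h read 31 for Tek, 17 for Tie1, 323 for Kdr, 55 for Flt4, 87 for Eng, 39 for Robo4, 72 for Calcrl and 82 for Ramp2. Of the junction and surface genes, it read 26 for Pecam1, 46 for Cdh5, 53 for Cldn5, 202 for Esam, 32 for Icam2, 47 for Ptprb, 29 for Emcn, 1260 for Cd34, 49 for Plvap, 78 for Mmrn2, 70 for Clec14a and 31 for Ecscr. Cd34 was the brightest member at 4 h, as it was at 8 h in both genotypes. Of the others, the array read 246 for Sox18, 17 for Fli1, 37 for Erg, 125 for Ets1, 100 for Egfl7, 39 for Gpihbp1, 56 for Nos3, 73 for Spns2 and 888 for She.

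Other probe sets of the called members gave a technical check only. At 8 h, 11 further probe sets of 7 called members were above the floor, of which 10 went the same way, all but that of Flt4, and 7 also reached 2-fold. At 24 h there were 4, of 2 members, all in the same direction and 2 of them past 2-fold. Those 2 lay under the floor in the knockout, and against the floor their folds fall short of 2-fold. Mmrn2 (1439518_at) read 9 in the knockout and 29 in wild type, and Clec14a (1419468_at) 14 in the knockout and 37 in wild type. At 8 h they fell short likewise, with 13 in the knockout and 39 in wild type, and 11 and 35. Probe sets under the floor in both genotypes, such as that of Cdh5, were not counted. For 21 of the 36 members the gene had a single probe set, Ramp2, Spns2, Emcn and Cd34 among them, so their values could not be checked in this way. Over all genes, the differences of probe sets of the same gene scattered with an SD on the log2 scale of 0.28 (8 h) and 0.40 (24 h).

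Other endothelial genes were also lower in part. At 8 h, 11 of the 34 such genes that reached the floor were lower and none was higher (median -0.49), and at 24 h 7 of 34 were lower and 1 was higher (median -0.45). Aplnr, the apelin receptor, had 97 in the knockout and 812 in wild type at 8 h (8.37-fold lower) and 161 in the knockout and 573 in wild type at 24 h (3.56-fold lower). Cd93, a lectin-like receptor of endothelium, had 49 in the knockout and 348 in wild type at 8 h (7.10-fold) and 71 in the knockout and 258 in wild type at 24 h (3.63-fold). Thbd, thrombomodulin, was 4.48-fold lower and Tm4sf1, a tetraspanin-like surface protein, 3.98-fold lower at 8 h. At 24 h Nrp1, a VEGF co-receptor, was 6.44-fold lower and Procr, the protein C receptor, 4.41-fold lower. The gene called higher at 24 h was Cd36, with 356 in the knockout and 129 in wild type (2.76-fold). At 8 h Cd36 was also above wild type, short of the rule, with 738 in the knockout and 375 in wild type. The list also holds genes with far higher intensities at 8 h, such as Lyve1, a hyaluronan receptor of lymphatic endothelium, at 4163 in the knockout and 5158 in wild type, which was not called between genotypes. At 24 h Lyve1 read 61 in the knockout and 77 in wild type. Prox1, also on the list, did not reach the floor on any array.

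Markers of other vessel wall and connective tissue cells mostly moved the same way at 8 h. Of 16 pericyte and smooth muscle markers, 12 were lower in the knockout and none higher at 8 h (median -1.69), and 4 were lower at 24 h (median -0.40). Their summed intensity was 2340 in the knockout and 8939 in wild type at 8 h, and at 24 h 2890 in the knockout and 3696 in wild type. Rgs5, a pericyte gene, had 40 in the knockout and 453 in wild type at 8 h (11.3-fold) and 51 in the knockout and 107 in wild type at 24 h (2.10-fold). Myh11, smooth muscle myosin, had 33 in the knockout and 219 in wild type at 8 h (6.64-fold) and 58 in the knockout and 70 in wild type at 24 h. Not called at 8 h were Cspg4, Des, Ndufa4l2 and Anpep, with log2 differences of -0.04, -0.07, -0.30 and 0.34. Of 15 fibroblast and stroma markers, 14 were lower and none higher at 8 h (median -2.16) and 1 was lower at 24 h (median -0.44), with sums of 5232 in the knockout and 24159 in wild type at 8 h, and at 24 h 11441 in the knockout and 17181 in wild type. Most of these markers moved with the endothelial ones, and their part in the endothelial differences was not tested.

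Leukocyte markers had 3 lower and 1 higher of 14 at 8 h (median -0.46), with a summed intensity of 1127 in the knockout and 1706 in wild type, and 3 lower of 13 at 24 h (median -0.29), with 1655 in the knockout and 2434 in wild type. Of 5 platelet and megakaryocyte markers above the floor, which bear on Vwf, Tal1 and Pecam1, Pf4 was lower at 8 h (40 in the knockout, 90 in wild type) and none was called at 24 h. Of 5 erythroid markers, Alas2 was lower at 8 h (117 in the knockout, 280 in wild type) and none was called at 24 h. Their medians were 0.24 at 8 h and -0.12 at 24 h for platelet and -0.20 at 8 h and 0.07 at 24 h for erythroid markers. Of 6 theca markers, which belong to the vessel-bearing layer around the follicle, the androgen enzyme gene Cyp17a1 was lower at 8 h (median -0.54), and of 5 at 24 h Aldh1a1 was higher (median 0.11). The summed theca intensity was 3995 in the knockout and 6708 in wild type at 8 h, and at 24 h 10534 in the knockout and 4067 in wild type, of which Aldh1a1 alone made up 8536 in the knockout and 2300 in wild type. The granulosa list had 1 of 14 lower at 8 h, the activin binder Fst, with a median of -0.05, and none called at 24 h, with a median of 0.29. Its summed intensity was 50997 in the knockout and 58083 in wild type at 8 h, and at 24 h 78036 in the knockout and 79757 in wild type. Of 10 housekeeping genes none was called at 8 h (median 0.03) and Pgk1 was lower at 24 h (median -0.18). All of these are single arrays, and differences between the lists were not tested.

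**Figure D5:**
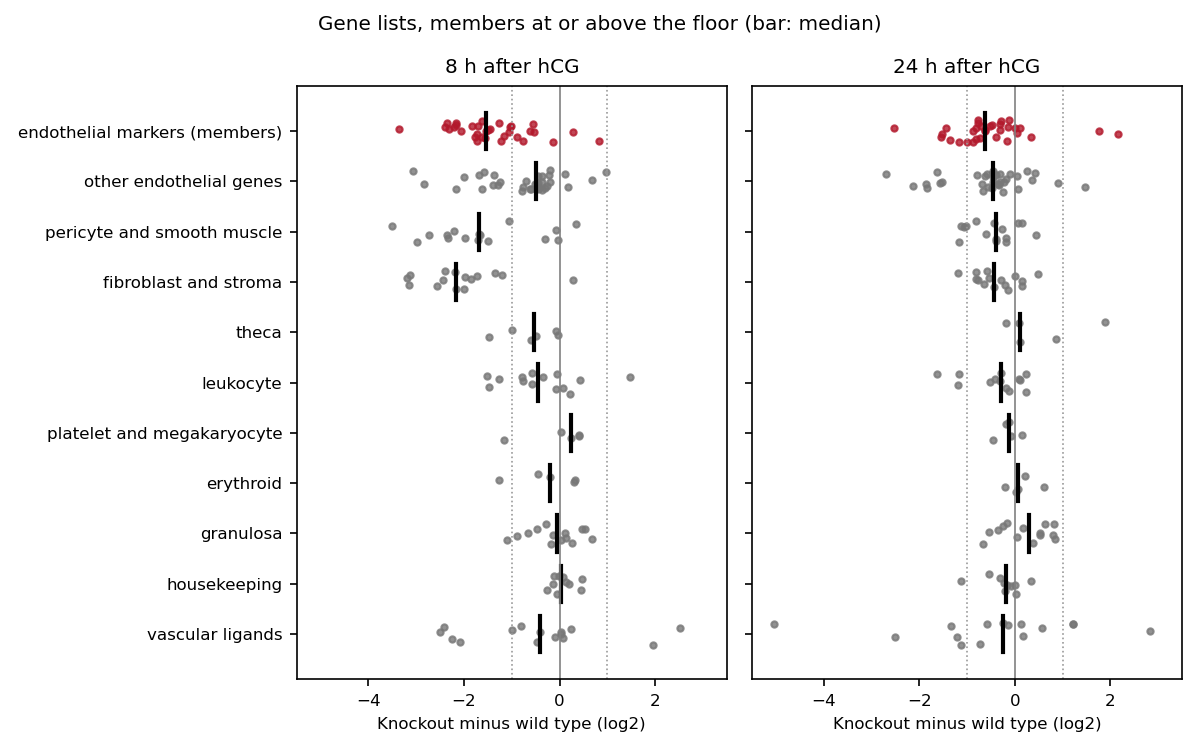
Log2 difference of knockout minus wild type at 8 h and 24 h for the genes of each list at or above the floor, 1 point per gene (vertical scatter within a list has no meaning), with a bar at the list's median and dotted lines at the 2-fold threshold. At 8 h the medians of endothelial members (-1.53), pericyte and smooth muscle (-1.69) and fibroblast and stroma (-2.16) lie left of the others, and at 24 h all medians lie between -0.63 and 0.29.

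Vascular ligands went in both directions. Of 15 above the floor, 5 were lower and 2 higher in the knockout at 8 h (median -0.40) and 5 lower and 3 higher at 24 h (median -0.24). Edn2, an endothelin, had 603 in the knockout and 105 in wild type at 8 h (5.74-fold higher), and at 24 h 83 in the knockout and 208 in wild type (2.51-fold lower). Sema3e, a semaphorin that repels endothelial cells, had 323 in the knockout and 83 in wild type at 8 h (3.89-fold higher), and at 24 h 156 in the knockout and 22 in wild type (7.09-fold higher). Both were among the largest differences of the list, as were the lower ligands that follow. Vegfd, a ligand of Flt4, had 89 in the knockout and 505 in wild type at 8 h, and at 24 h 97 in the knockout and 107 in wild type. Cxcl12 had 75 in the knockout and 401 in wild type at 8 h (5.35-fold lower). At 24 h Cxcl12 had 248 in the knockout and 227 in wild type. Apln, the ligand of Aplnr, had 62 in the knockout and 295 in wild type at 8 h, and at 24 h 45 in the knockout and 1491 in wild type. Angpt1, the agonist of Tek, had 13 in the knockout and 55 in wild type at 8 h, and at 24 h 17 in the knockout and 97 in wild type.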

How the data were processed

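RNeasy kits were used for RNA, of which 5 ug were biotin-labelled, per the labels' protocols. The authors' deposited values are intensities on a linear scale, rounded to whole numbers, while affy and RMA are named, without versions, per the submitters' processing notes. Log2 of the deposited intensities was taken here, and rounding makes log2 differences coarse for dim probe sets. The number of arrays, 1 per group, limits the precision.

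Gene names came from GEO's annotation of the platform, updated by Entrez identifier where a RefSeq table (GRCm38.p6) allowed. Of 45101 probe sets, 34958 carried 1 symbol, 932 several and 9211 none, and 34754 identifiers matched. No model was fitted. The size rule (2-fold, floor of 22) was applied to all 18194 genes with Python 3.11.15, numpy 2.4.6 and pandas 2.3.3. It was tried on simulated data, with changes well past 2-fold in genes well above the floor. That trial does not cover changes near 2-fold or changes of dim genes. The members, lists and motifs were chosen with earlier results of these data known. Members past the rule in any of the 4 comparisons at 8 and 24 h are named with their values. Outside the members, up to 4 genes per list and comparison could be named, those of largest difference past the size rule, and a choice of these is given. Some genes that were not called are named beside them. In all, 10 alternative settings were run.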

Additional observations from a re-analysis of the deposited data

Results flagged for a closer look

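Members that passed the size rule in opposite directions under the same contrast were looked for. Spns2 was lower in the knockout at 8 h (24 in the knockout, 56 in wild type) and higher at 24 h (636 in the knockout, 186 in wild type), and its genotype differences at the times were 3.0 apart on the log2 scale. Its call at 8 h was lost with the floor at the 60th percentile, an intensity of 66, and at a 3-fold threshold, so its opposite directions rest on a knockout value near the floor at 8 h. Ramp2 was higher at 24 h than at 8 h in the knockout (1280 at 24 h, 559 at 8 h) and lower at 24 h in wild type (288 at 24 h, 612 at 8 h), and these changes were 2.28 apart. Both Ramp2 calls with time were lost at a 3-fold threshold. Opposite calls of either kind were found in 8 of 12660 genes between the genotype differences (0.0632%) and in 12 of 12737 between the time changes (0.0942%). With 1 array per group neither difference was tested.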

How the results depend on the processing

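No paired analysis was possible because each group had 1 array, and for the same reason no replicate could be left out. Each comparison was repeated under 10 settings, and the counts of members lower and higher and their medians held their direction and stayed within 1.5 times of the count reported, or within the spread between probe sets of a gene, except as follows. At a 1.5-fold threshold there was 1 member higher at 8 h (none at 2-fold), 17 were lower at 24 h, 22 were lower with time in wild type, 4 were higher with time in the knockout, 18 were lower from 4 h to 8 h, and 22 genotype differences moved upward. At a 3-fold threshold the lower counts were 15 at 8 h, 1 at 24 h, 4 with time in wild type, 2 with time in the knockout and 3 from 4 h to 8 h, the higher counts were 1 with time in the knockout and 1 from 4 h to 8 h, and 4 genotype differences moved upward and 0 downward. With the mean of all probe sets, 7 members were lower with time in wild type and 2 in the knockout. Without probe sets of suffix _x_at, _s_at or _a_at, which removes Spns2 and Emcn among others, 1 member was higher at 24 h, 0 with time in wild type and 1 with time in the knockout. From 4 h to 8 h in the knockout, quantile normalization gave 2 lower and 4 higher with a median of 0.40, and median centring 1 lower and 5 higher with a median of 0.39, both reversed from -0.71 as deposited, since these settings remove the shift in scale. No called member reversed under these settings, though Calcrl stood at 0.00 at 8 h without the suffixed probe sets, on one under the floor. Of 52 calls of single members, 13 were lost with the mean of all probe sets, namely Flt4, Calcrl, Cdh5 and Erg at 8 h, Cdh5 and Mmrn2 at 24 h, Calcrl, Cdh5, Mmrn2, Fli1 and Erg with time in wild type, and Cdh5 and Ets1 with time in the knockout. Flt4 and Nos3 at 8 h were also lost after quantile normalization or median centring. Tie1 at 8 h was lost with dim values raised to the floor. With the floor at the 60th percentile, Tie1, Pecam1, Gpihbp1 and Spns2 were lost at 8 h. Without the suffixed probe sets Calcrl was lost at 8 h and with time in wild type, and Mmrn2 at 24 h and with time in wild type, while 38 calls held. The calls of Emcn, Pecam1, Eng, Egfl7 and Spns2 could not be checked there, since all their probe sets are suffixed. Median centring lost Emcn with time in wild type. The 3-fold threshold ended 26 calls. Choosing probe sets without the array at 4 h lost none. With the mean of all probe sets, 3 other endothelial genes and no pericyte or smooth muscle marker were lower at 24 h. Of the other lists, medians near 0 changed sign for platelet markers (-0.39 at 8 h, 0.01 at 24 h and 0.42 with time in the knockout) and erythroid markers (0.30 at 8 h and -0.06 at 24 h) with the floor at the 60th percentile, an intensity of 66, for erythroid markers at 8 h without the suffixed probe sets (0.05), and for granulosa markers at 24 h with the mean of all probe sets (-0.10). Low intensity limits Tie1, Pecam1, Fli1, Gpihbp1 and Tek, whose knockout values at 8 h lay under the floor.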
